A study of Mus musculus with 11 samples.

Results

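The genes described here encode the phagocyte NADPH oxidase and its close partners: Cybb, Cyba, Ncf1, Ncf4, Rac1, Rac2 and Hvcn1. They were chosen by mouse symbol and matched to the Ensembl identifiers of the count table, which gave 7 genes of the 51912 listed. All 7 passed the filter on low counts and belong to the 15703 genes that were tested. RNA was sequenced from lineage-negative bone marrow of C57BL/6 mice aged 6 to 12 weeks, transduced with retroviral vectors that carry human oncogene cDNAs. One vector (MIG, with GFP) expresses its insert constitutively, and the other (idsRed, with a red fluorescent protein) only after Cre has been activated by 4-hydroxytamoxifen (4-OHT). The study describes the inducible vector in marrow of a Rosa26 ERT2-Cre strain. CSF3R-only cells (n = 4) carried CSF3R T618I in the constitutive vector and an empty inducible vector. CSF3R-first cells (n = 3) carried CSF3R T618I constitutively and inducible CEBPA V314VW, and CEBPA-first cells (n = 4) carried CEBPA V314VW constitutively and inducible CSF3R T618I. Every group therefore expressed CSF3R T618I, a mutant receptor for granulocyte colony-stimulating factor, and no group without it was compared here. Cells positive for both fluorescent proteins were sorted and kept for 48 h with 500 nM 4-OHT in medium without added cytokines, so the constitutive oncogene acted longer than the induced one. The comparison asks whether the order in which the mutations arrive is reflected in the expression of the oxidase genes. Between CEBPA-first and CSF3R-first cells, the order, vector and duration of each oncogene change together and cannot be told apart. CEBPA-first cells differ from CSF3R-only cells both in carrying mutant CEBPA and in having CSF3R T618I in the inducible vector.

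The phagocyte oxidase moves electrons from cytosolic NADPH across a membrane onto oxygen and so makes superoxide, which neutrophils and macrophages use to kill microbes. Cybb encodes the catalytic heme-binding subunit and Cyba its membrane partner, and each protein stabilizes the other. The cytosolic subunits encoded by Ncf1, the organizer, and Ncf4, which binds phosphoinositides on phagosomes, join the membrane pair on activation together with a GTP-bound Rac protein. Rac2 is the Rac of blood cells and Rac1 is expressed in most cells. Hvcn1 encodes a voltage-gated proton channel that carries out the protons left behind by the electron transfer. Loss of Cybb, Cyba, Ncf1 or Ncf4 function causes chronic granulomatous disease in humans, and expression of the complex rises as myeloid cells mature.

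Promoter sequences were at hand for Cybb, Cyba and Ncf1, the membrane pair and the organizer, whose transcripts all fell in CEBPA-first cells. The 120 bases before the RefSeq start site (GRCm38.p6, all on the minus strand, written 5′ to 3′ in the direction of transcription) are shown so that these promoters can be compared. Capitals mark a match on either strand to 1 of 4 motifs that were searched in all 300 bases of the promoter windows: the PU.1 core GAGGAA, the C/EBP motif TTGCNNAA, the STAT motif TTCNNNGAA and the CCAAT box CCAAT.
Cybb, chrX:9469325-9469444: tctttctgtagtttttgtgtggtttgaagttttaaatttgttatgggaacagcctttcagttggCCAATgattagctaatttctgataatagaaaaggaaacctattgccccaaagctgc
Cyba, chr8:122432941-122433060: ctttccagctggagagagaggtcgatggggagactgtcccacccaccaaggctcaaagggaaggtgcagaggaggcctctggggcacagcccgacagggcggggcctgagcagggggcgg
Ncf1, chr5:134229626-134229745: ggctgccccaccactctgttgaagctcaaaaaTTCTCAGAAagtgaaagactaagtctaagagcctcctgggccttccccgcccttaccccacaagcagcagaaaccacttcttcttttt

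The promoters differed in base composition, with 35.8% G and C in the 120 bases of Cybb and 67.5% in those of Cyba, and Ncf1 in between. The Cybb window held the CCAAT box 56 bases before the start site and a PU.1 core 10 bases after it, outside the stretch shown. The Ncf1 window held the STAT motif 88 bases before the start site, and the Cyba window held none of these letters. Across the 32851 promoters of the same length, 37.4% held CCAAT, 28.3% GAGGAA, 10.8% TTGCNNAA and 8.3% TTCNNNGAA. A match is a run of letters and shows no binding.

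Expression is given as CPM, the counts of a gene relative to its library's total after TMM scaling, and total counts ranged from 47905747 to 72268346 per sample. Differences are log2 fold changes from edgeR's quasi-likelihood test with standard errors (SE), called at a Benjamini-Hochberg adjusted p below 0.05 over all genes tested. The labels do not say that replicates came from separate animals or cultures, so p-values measure only the spread between these samples. In bulk samples, fewer cells of a type and less RNA per cell cannot be told apart. Myeloid markers were abundant. Of the lymphocyte markers, Cd3e and Cd8a had no count in any library and Pax5 had at most 1, whereas Cd79b and Lck were detected at up to 437 and 398 counts. Every replicate pair within a group differed by more than sampling noise (chi-square per degree of freedom 9.11 to 99.1), so none was treated as 1 library deposited again; this does not show that their RNA came from separate cultures or animals.

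In CEBPA-first against CSF3R-only cells, 6 of the 7 genes were lower and 1, Hvcn1, was higher. The background for lower calls in this comparison was 36.6% of all genes tested, and for higher calls 35.4%. The 6 lower genes also had no overlap between the samples of these groups, which held for 34.5% of all genes. With a log2 fold change past 1 required as well, 3 were lower (Cybb, Cyba and Ncf4), against a background of 19.0%, while Ncf1 and Rac2 lay just short of that threshold. The median log2 fold change over the 7 genes was -0.99, beside -0.00 over all genes tested. Together the 7 genes took 0.491% ± 0.029 (SD, n = 4) of all counts in CSF3R-only cells. Their share was 0.383% ± 0.056 (n = 3) among CSF3R-first samples and 0.235% ± 0.013 (n = 4) among CEBPA-first samples.

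**Figure D1:**
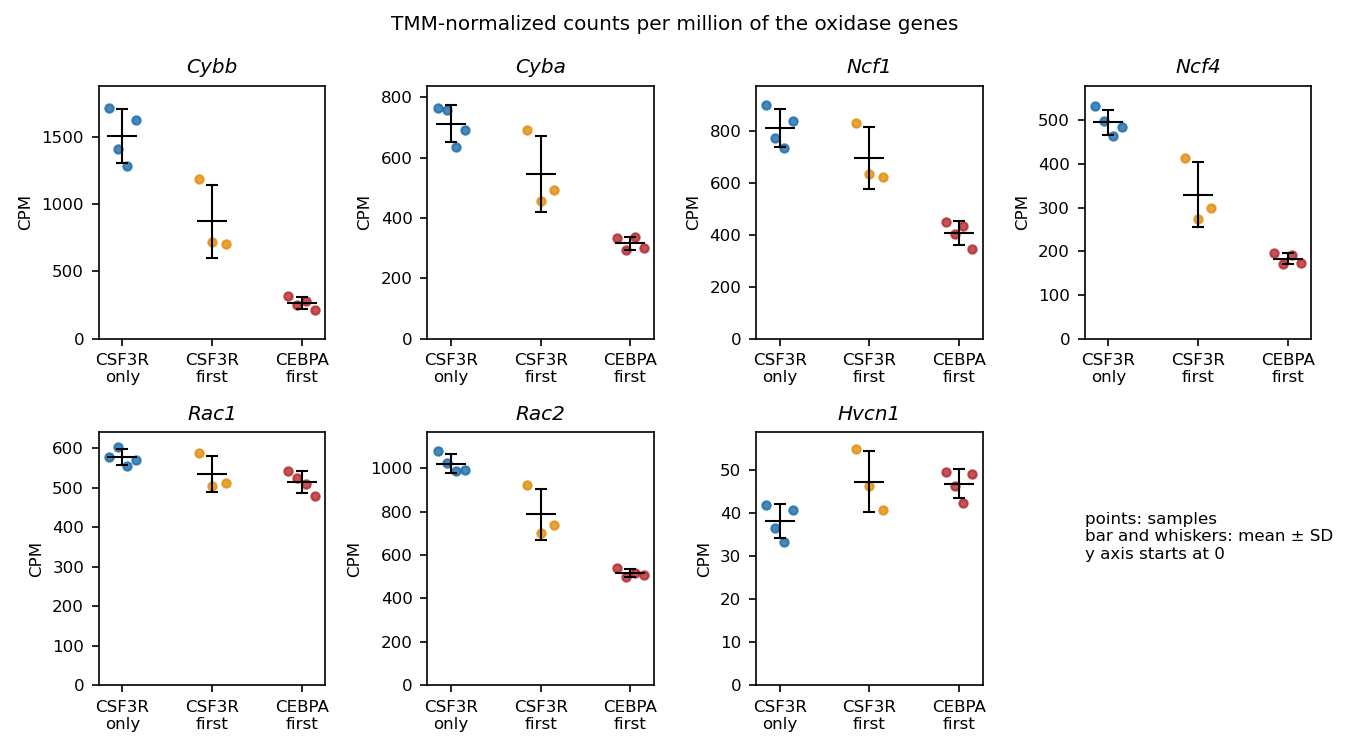
TMM-normalized CPM (y axis from 0) of the 7 genes in each sample of the 3 groups, with points for samples and a bar with whiskers for the mean ± SD. Cybb falls from 1283 to 1718 CPM in CSF3R-only to 214.6 to 315.1 CPM in CEBPA-first samples, while Rac1 stays between 479.1 and 603.8 CPM in all samples.

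Cybb, on the minus strand at chrX:9435252-9487771 (GRCm38), showed the wider separation of the membrane pair. This GENCODE span reaches farther upstream than the RefSeq start site used for the promoter shown, which lies inside it. In CSF3R-only replicates A, B, C and D it stood at 1718, 1413, 1283 and 1628 CPM. The CSF3R-first replicates A, B and C held 1188, 722.1 and 707.8 CPM. CEBPA-first replicates A to D held 315.1, 246.9, 281.6 and 214.6 CPM. The lowest sample of each group was thus above the highest of the next, and CSF3R-first replicate A was the nearest of its group to CSF3R-only. The log2 fold change of CEBPA-first was -2.51 (SE 0.18, edgeR adjusted p = 7.6e-08) against CSF3R-only and -1.72 (adjusted p = 1.4e-05) against CSF3R-first. CSF3R-first cells were lower than CSF3R-only cells by a log2 fold change of -0.79 (adjusted p = 0.0047).

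Cyba, at chr8:122424776-122432930 on the minus strand, fell less. Its levels were 764.4, 758.1, 635.2 and 693.1 CPM in CSF3R-only and 690.9, 455.5 and 493.6 CPM in CSF3R-first replicates. CEBPA-first replicates held 334.7, 292.5, 335.5 and 300.6 CPM, below every sample of the other groups. The CSF3R-first samples overlapped those of CSF3R-only through replicate A. CEBPA-first cells were lower by a log2 fold change of -1.17 (SE 0.12, edgeR adjusted p = 1.5e-06) against CSF3R-only and -0.79 (adjusted p = 0.00033) against CSF3R-first. The call of CSF3R-first against CSF3R-only (-0.38, adjusted p = 0.028) was lost without CSF3R-only replicate A (-0.35, adjusted p = 0.067) or B (-0.35, 0.063) and without CSF3R-first replicate B (-0.27, 0.14) or C (-0.30, 0.12), and the fall was -0.59 without CSF3R-first replicate A. It was also lost when those groups alone were fitted (-0.37, adjusted p = 0.067).

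The balance between the membrane partners therefore shifted, because Cybb fell more than Cyba. Per kilobase of exon, the ratio of Cybb to Cyba was 0.379 ± 0.039 (SD, n = 4) for CSF3R-only samples. It was 0.283 ± 0.026 (n = 3) after adding mutant CEBPA second (CSF3R-first) and 0.149 ± 0.016 (n = 4) when mutant CEBPA came first. The mean log2 ratio of CPM fell from 1.08 through 0.66 to -0.27. No sample of one group overlapped with another, and each of the 3 pairs gave a two-sided exact permutation p of 0.0286, the smallest that 4 samples against 4 or 3 allow (Benjamini-Hochberg adjusted p = 0.0321 over 9 ratio tests). A ratio within a sample does not depend on how libraries are scaled. Cybc1, which encodes a chaperone needed for assembly of the membrane pair, averaged 116 ± 6.5 CPM with CSF3R-only, 102 ± 12.1 CPM with CSF3R-first and 94.0 ± 4.8 CPM with CEBPA-first. CEBPA-first cells had less of it than CSF3R-only cells (log2 fold change -0.31, edgeR adjusted p = 0.002), while neither CSF3R-first against CSF3R-only (-0.19, adjusted p = 0.074) nor CEBPA-first against CSF3R-first (-0.12, adjusted p = 0.23) passed.

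Among the cytosolic subunits, Ncf4 (chr15:78244801-78262580, plus strand) fell more than Ncf1 (chr5:134220053-134229625, minus strand). Ncf4 stood at 533.3, 498.9, 464.1 and 485.7 CPM in CSF3R-only replicates A to D. Its CSF3R-first values were 414.4, 274.5 and 299.9 CPM, and its CEBPA-first values 196.8, 171.4, 191.9 and 172.5 CPM. Groups did not overlap in any comparison. The log2 fold changes were -1.44 (SE 0.11, edgeR adjusted p = 1.8e-07) for CEBPA-first against CSF3R-only, -0.85 (0.00013) against CSF3R-first and -0.59 (0.0022) for CSF3R-first against CSF3R-only.

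Ncf1 held 899.6, 771.9, 733.2 and 838.8 CPM in CSF3R-only replicates. CSF3R-first replicates held 832.2, 634.2 and 621.6 CPM, and CEBPA-first replicates 447.6, 402.6, 435.5 and 345.6 CPM. CEBPA-first samples lay below all others, and CSF3R-first replicate A lay within the CSF3R-only range. CEBPA-first cells differed by a log2 fold change of -0.99 (SE 0.11, edgeR adjusted p = 3.8e-06) from CSF3R-only and -0.77 (0.00026) from CSF3R-first cells. The difference between CSF3R-first and CSF3R-only did not pass (-0.22, adjusted p = 0.16), but passed without CSF3R-first replicate A (-0.37, adjusted p = 0.012). It was -0.16 (adjusted p = 0.41) without replicate B and -0.13 (0.48) without replicate C. Of the Ncf1 exon bases, 11.1% overlap Gtf2ird2 on the other strand, and that whole gene was at 11.1 to 12.7 CPM on average.

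The ratio of Ncf4 to Ncf1 followed another course than that of the membrane pair. Per kilobase the CSF3R-only cells had a ratio of 1.11 ± 0.059, CSF3R-first cells one of 0.854 ± 0.062 and CEBPA-first cells one of 0.818 ± 0.059. Both groups with mutant CEBPA were below CSF3R-only without overlap (two-sided exact permutation p = 0.0286, adjusted p = 0.0321). Between CEBPA-first and CSF3R-first the samples overlapped and the log2 difference of -0.06 was not detectable (exact permutation p = 0.457).

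**Figure D2:**
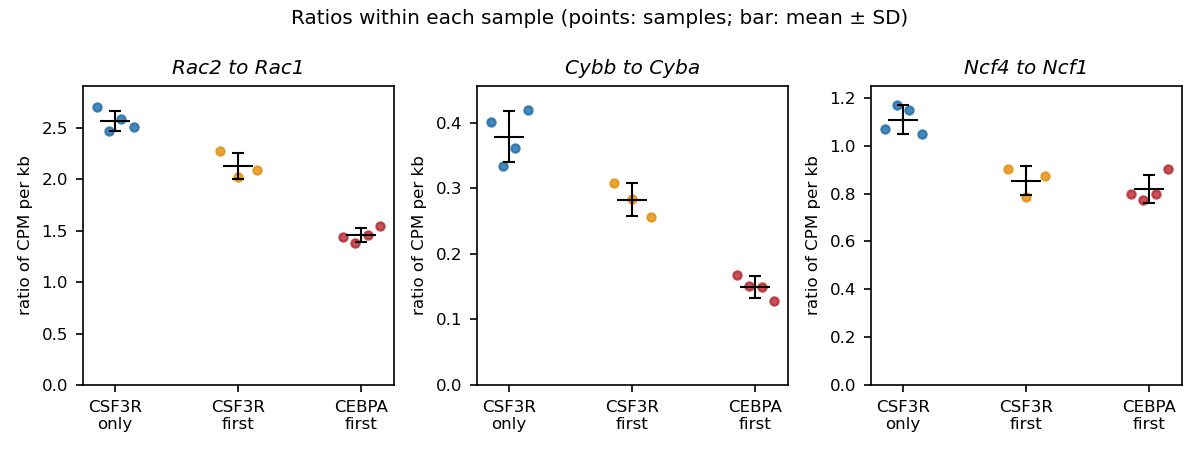
Ratios of CPM per kilobase of exon (y axis from 0) between Rac2 and Rac1, Cybb and Cyba, and Ncf4 and Ncf1, with points for samples and a bar with whiskers for the mean ± SD. The first pair of ratios fall stepwise, Rac2 to Rac1 from 2.56 through 2.13 to 1.46, whereas for Ncf4 to Ncf1 the CSF3R-first (mean 0.854) and CEBPA-first samples (0.818) overlap.

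The Rac genes parted from each other. Rac2 (chr15:78559167-78572783, minus strand) was at 1081, 1027, 989.6 and 990.6 CPM in CSF3R-only and 921.0, 703.1 and 737.8 CPM in CSF3R-first replicates. CEBPA-first replicates held 541.7, 499.7, 515.1 and 508.8 CPM, so that the groups did not overlap. Its log2 fold changes were -0.99 (SE 0.08, edgeR adjusted p = 3.2e-07) for CEBPA-first against CSF3R-only, -0.61 (0.00017) against CSF3R-first and -0.38 (0.0051) for CSF3R-first against CSF3R-only. A stretch of 4.02% of its transcript is near-identical to one of Sirt5, so a small part of its reads is uncertain.

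Rac1 (chr5:143503634-143528036, minus strand) showed the smallest difference of the 7 genes between CEBPA-first and CSF3R-only cells. CSF3R-only replicates held 579.5, 603.8, 556.0 and 571.5 CPM of it, CSF3R-first replicates 588.9, 504.1 and 512.6 CPM, and CEBPA-first replicates 543.2, 526.1, 510.8 and 479.1 CPM. CEBPA-first was below CSF3R-only without overlap, by a log2 fold change of -0.17 (SE 0.07, edgeR adjusted p = 0.041). That call was lost with DESeq2 (adjusted p = 0.072), with library totals (-0.03, 0.55) and without filtering (-0.09, 0.38). It was also lost without CSF3R-only replicate A (-0.17, adjusted p = 0.064), B (-0.15, 0.086) or D (-0.17, 0.063), CEBPA-first replicate B (-0.18, 0.057), C (-0.16, 0.086) or D (-0.13, 0.12), or CSF3R-first replicate C (-0.15, 0.057). The other comparisons did not pass, with -0.06 (adjusted p = 0.56) for CEBPA-first against CSF3R-first and -0.11 (0.25) for CSF3R-first against CSF3R-only; without CSF3R-first replicate A these became 0.02 (0.83) and -0.18 (0.046). Daglb shares 51.4% of the Rac1 exon bases on the other strand, and whether counting used strand is not given in the sources used here. Daglb was at 38.5 CPM on average with CSF3R-only, at 36.2 CPM with CSF3R-first and at 31.1 CPM with CEBPA-first, and its difference between the outer groups was -0.31 (adjusted p = 0.0015).

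Rac2 transcripts outnumbered those of Rac1 per kilobase by 2.56 ± 0.101 to 1 where mutant CSF3R acted alone, by 2.13 ± 0.129 to 1 where it came first and by 1.46 ± 0.066 to 1 where mutant CEBPA came first. In counts, CEBPA-first samples had a ratio between 0.95 and 1.06, and CSF3R-only samples one between 1.7 and 1.87. The 3 groups did not overlap, and each pair gave a two-sided exact permutation p of 0.0286 (adjusted p = 0.0321).

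Hvcn1, the proton channel (chr5:122206804-122242297, plus strand), went the other way at a much lower level. It was at 41.79, 36.52, 33.3 and 40.7 CPM in CSF3R-only replicates. The CSF3R-first values were 54.77, 46.18 and 40.62 CPM and the CEBPA-first values 49.43, 46.27, 42.34 and 49.11 CPM. All CEBPA-first samples lay above all CSF3R-only samples, whereas the lowest CSF3R-first sample lay within the CSF3R-only range. The log2 fold change was 0.30 (SE 0.10, edgeR adjusted p = 0.015) in CEBPA-first against CSF3R-only, which was lost without CSF3R-only replicate C (0.24, adjusted p = 0.053). In CSF3R-first against CSF3R-only it was 0.31 (adjusted p = 0.031), and this was lost without CSF3R-only replicate B (0.29, 0.069) or C (0.25, 0.085) and without CSF3R-first replicate A (0.19, 0.14) or B (0.33, 0.063). CEBPA-first and CSF3R-first did not differ detectably (-0.01, adjusted p = 0.94). Tctn1 shares 44.2% of the Hvcn1 exon bases on the other strand and was at 4.45 to 4.81 CPM on average.

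**Figure D3:**
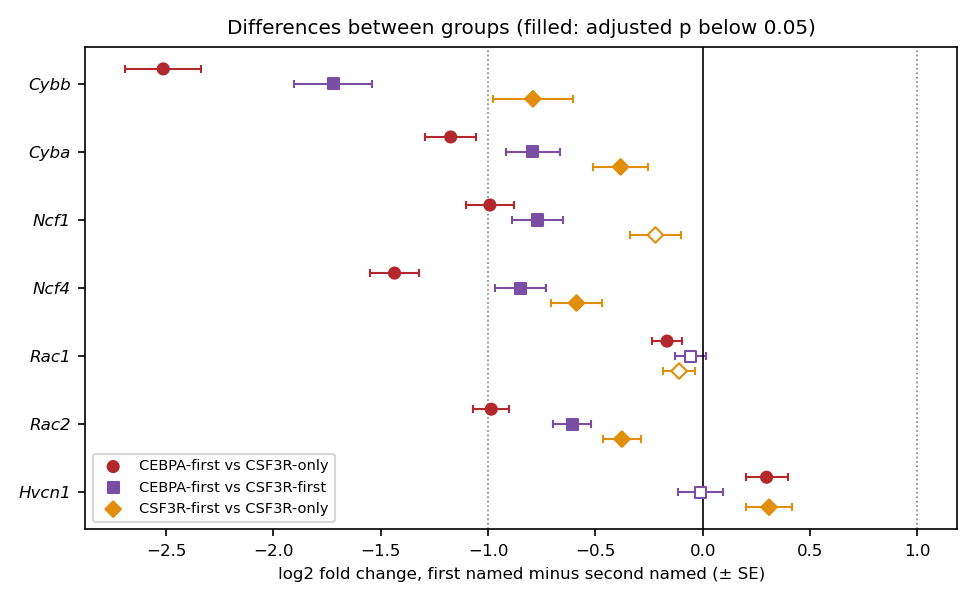
Log2 fold change ± SE (x axis) of the 7 genes in the 3 comparisons, with filled symbols for an adjusted p below 0.05 and dotted lines at -1 and 1. Cybb lies farthest from 0 in each comparison, at -2.51, -1.72 and -0.79, and Hvcn1 is positive in both comparisons with CSF3R-only (0.30 and 0.31) and at -0.01 between CEBPA-first and CSF3R-first.

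CEBPA-first and CSF3R-first cells carry the same mutations in opposite order and in swapped vectors. In CEBPA-first against CSF3R-first cells, 5 of the 7 genes were lower (Cybb, Cyba, Ncf1, Ncf4 and Rac2), all without overlap. The background was 24.3% for lower calls and 24.8% for lower samples without overlap. One gene, Cybb, also passed the fold threshold, against a background of 10.3%. None was higher by edgeR or DESeq2, also at an unadjusted p below 0.05, where 24.0% of all genes were higher at the adjusted p. The median over the 7 genes was -0.77, beside 0.00 over all genes.

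In CSF3R-first against CSF3R-only cells, where mutant CEBPA was added last, 4 genes were lower (Cybb, Cyba, Ncf4 and Rac2; background 21.1%) and Hvcn1 was higher (background 21.6%). Cybb, Ncf4 and Rac2 were lower without overlap, against 21.4% of all genes. None was lower past the fold threshold (background 4.53%) by edgeR or DESeq2, at an unadjusted p below 0.05 either, but without CSF3R-first replicate A Cybb was (-1.08). The median over the 7 genes was -0.38, beside -0.02 over all genes. These comparisons share samples with each other, so their values are given side by side and not as independent results.

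CSF3R-first lay between the other groups for the 5 genes that fell in both comparisons with CEBPA-first. With the mean log2 CPM of CSF3R-only set at 0 and that of CEBPA-first at 1, CSF3R-first was at 0.328 for Cybb, 0.343 for Cyba, 0.23 for Ncf1, 0.424 for Ncf4 and 0.392 for Rac2, nearer to CSF3R-only in each over the 3 replicates. Its replicates were uneven. Replicate A was at 0.134, 0.035, -0.042, 0.178 and 0.152 for these genes, whereas replicates B and C were between 0.352 and 0.592. Without replicate A, Ncf4 in CSF3R-first was nearer to CEBPA-first, with a log2 fold change of -0.79 from CSF3R-only and -0.64 from there to CEBPA-first. Rac2 then stood about midway (-0.50 and -0.48), as did Cyba (-0.59 and -0.58). A position for Rac1 or Hvcn1 carries little information, because the outer groups differ so little.

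Per kilobase of exon, the order of levels changed between groups. In CSF3R-only cells Cyba led at 686 ± 58.6 CPM per kilobase, followed by Rac2 at 329 ± 13.9, Cybb at 260 ± 34.1, Ncf4 at 245 ± 14.4, Ncf1 at 221 ± 20.1, Rac1 at 129 ± 4.4 and Hvcn1 at 10.7 ± 1.1. Cybb and Ncf4, and Ncf4 and Ncf1, overlapped in their samples, and the other neighbours did not. In CSF3R-first cells Cyba led at 526 ± 122 and Hvcn1 was last at 13.3 ± 2.0, without overlap with their neighbours, while Rac2, Ncf1, Ncf4, Cybb and Rac1 followed each other with overlap at every step. In CEBPA-first cells Cyba (304 ± 21.7) and Rac2 (166 ± 5.8) still led, but Rac1 (115 ± 6.1), Ncf1 (111 ± 12.5) and Ncf4 (90.7 ± 6.5) came before Cybb (45.6 ± 7.5). Cybb and Ncf4 did not overlap there. The middle of the order depends on the length used. Per kilobase of the longest transcript, Ncf4 (338.5), Rac2 (336.5) and Cybb (317.9) followed Cyba in CSF3R-only cells, and in CEBPA-first cells Ncf1 (141.5) and Ncf4 (125.1) came before Rac1 (123.8), while Cyba still led and Cybb stayed below all of these. Among 15668 genes ranked per kilobase, Cybb went from rank 157 in CSF3R-only through 273 to 1223 in CEBPA-first cells, whereas Rac1 was at rank 370, 380 and 368.

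**Figure D4:**
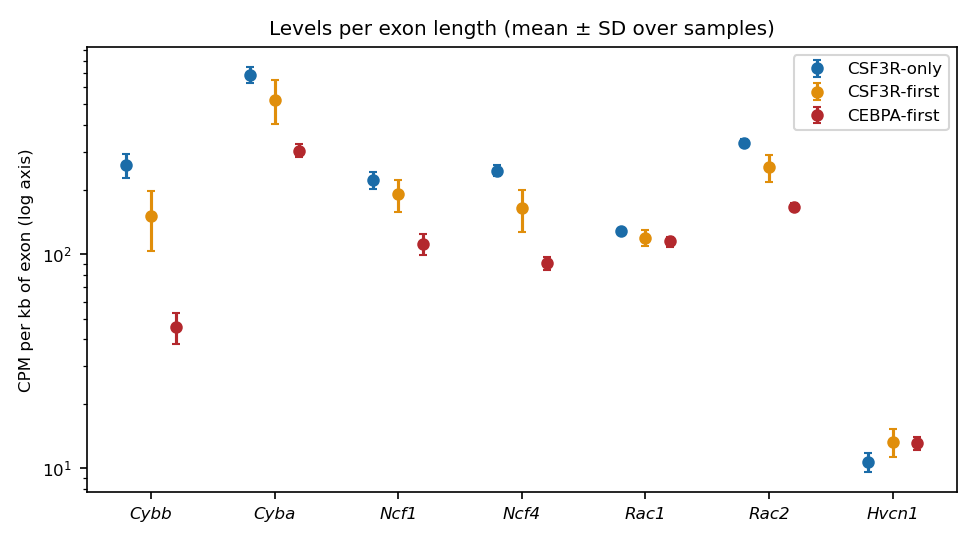
Level of the 7 genes as CPM per kilobase of exon (log y axis), with points for group means and whiskers for the SD over samples. Cybb drops from 260 to 45.6 CPM per kilobase, below Ncf1, Ncf4 and Rac1, while Cyba leads in every group.

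Genes related to the oxidase were described as lists, each gene measured in the same fit. Of 14 regulators and relatives of Rac, 9 were lower and 2 higher when CEBPA-first was compared with CSF3R-only, with a median log2 fold change of -0.50. Over all genes tested, 36.6% were lower and 35.4% higher in this comparison, which is the background for this and the following lists. Arhgap25, which switches Rac off, fell from 118 ± 14.4 to 41.1 ± 5.41 CPM (log2 fold change -1.52, edgeR adjusted p = 3.9e-07). Prex1, an exchange factor that switches Rac on in neutrophils, fell from 324 ± 34.5 to 161 ± 20.6 CPM (-1.01, adjusted p = 1.9e-06). Tiam1, another exchange factor, rose from 18.8 ± 1.3 to 31.98 ± 3.0 CPM (0.77, adjusted p = 1.2e-05), and Arhgdia, which holds Rac in the cytosol, rose by 0.17 (adjusted p = 0.015).

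Of 15 kinases and lipid enzymes that act upstream of the oxidase, 11 were lower and none was higher in this comparison, with a median of -0.51. Prkcb, a protein kinase C that phosphorylates the organizer subunit, fell from 284 ± 41.3 to 43.5 ± 2.74 CPM (log2 fold change -2.71, edgeR adjusted p = 8.6e-09). Pld1, a phospholipase D, fell from 34.9 ± 2.88 to 14.3 ± 1.69 CPM (-1.29, adjusted p = 3.3e-07). In CEBPA-first against CSF3R-first cells, 7 of the 15 were lower and 1 higher, and in CSF3R-first against CSF3R-only cells 10 were lower and none higher. The corresponding counts for the Rac list were 7 lower and 1 higher, and 7 lower and none higher. Over all genes, 24.3% were lower and 24.0% higher in the former comparison, and 21.1% and 21.6% in the latter.

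Of the other NADPH oxidase family genes (9 listed), only Noxo1 was frequent enough to be tested. It was at 0.567 ± 0.123 CPM in CSF3R-only and 0.470 ± 0.141 CPM in CEBPA-first cells (log2 fold change -0.28, edgeR adjusted p = 0.49). Nox4 and Duox2 had no count in any library. The summed level of the 9 genes was at most 0.886 CPM in any sample.

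Genes listed for superoxide, peroxide and glutathione metabolism moved both ways. Whether their enzymes act on products of the oxidase was not tested. Of 20 tested, 12 were lower and 6 higher in CEBPA-first cells against CSF3R-only (median -0.29). Epx, eosinophil peroxidase, fell from 5.91 ± 4.32 to 0.395 ± 0.298 CPM (log2 fold change -3.92, edgeR adjusted p = 0.00017). Prdx5, a peroxiredoxin, fell from 588 ± 60.6 to 153 ± 16.2 CPM (-1.94, adjusted p = 2.2e-07). Prdx4 rose from 12.01 ± 1.01 to 39.9 ± 6.2 CPM (1.73, adjusted p = 4.4e-08) and Prdx6 from 307 ± 19.9 to 615 ± 9.96 CPM (1.002, adjusted p = 1.8e-08). Mpo, the peroxidase of primary granules that uses hydrogen peroxide derived from the oxidase, rose from 1485 ± 116 through 2301 ± 263 to 2737 ± 176 CPM over the groups in the same order as before (0.88 for CEBPA-first against CSF3R-only, adjusted p = 1.5e-06), opposite in direction to Cybb.

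Of 10 genes listed under the supply of NADPH, the electron donor, 5 were lower and 3 higher (median -0.34), beside 36.6% and 35.4% of all genes. The list also holds further enzymes of the pentose phosphate pathway, and whether each gene provides NADPH to the oxidase was not tested. Nadk, which makes NADP from NAD, fell from 560 ± 53.4 to 260 ± 17.3 CPM (log2 fold change -1.11, edgeR adjusted p = 2.7e-07). Taldo1, an enzyme of the pentose phosphate pathway, fell from 938 ± 40.3 to 451 ± 18.4 CPM (-1.06, adjusted p = 2.4e-07). Me2, a mitochondrial malic enzyme, rose from 129 ± 8.84 to 289 ± 22.9 CPM (1.16, adjusted p = 1.9e-08), and Pgls, which acts in the pentose phosphate pathway, rose by 0.33 (adjusted p = 0.00025).

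**Figure D5:**
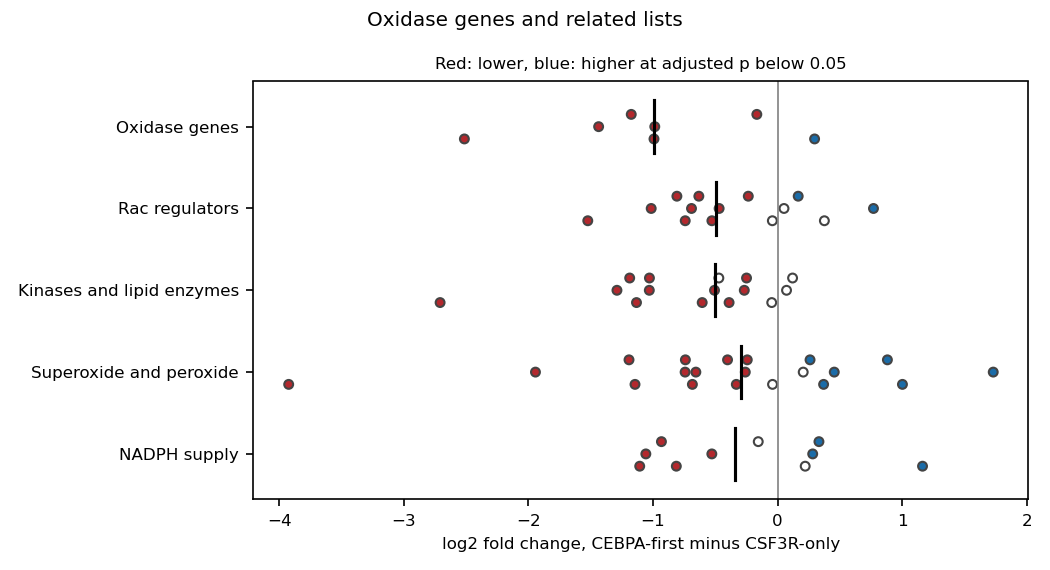
Log2 fold change (x axis) of CEBPA-first against CSF3R-only for the 7 oxidase genes and the tested genes of 4 related lists, with red for lower and blue for higher at an adjusted p below 0.05, open points for neither, and a black bar at each median. The medians are -0.99 for the oxidase genes, -0.50 and -0.51 for the Rac regulators and the kinases and lipid enzymes, -0.29 for the superoxide and peroxide enzymes and -0.34 for NADPH supply.

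Cell type markers also differed between the groups. All 12 neutrophil maturation markers fell between CSF3R-only and CEBPA-first cells, and their summed level was 27320 to 33600 CPM for CSF3R-only samples, 14770 to 25770 CPM for CSF3R-first samples and 6484 to 8642 CPM for CEBPA-first samples. The sums of the next lists are given in this order of groups. Of 10 monocyte and macrophage markers, 8 were lower and 2 higher, with sums of 3078 to 3883, 1677 to 2971 and 951.4 to 1328 CPM. Of 6 eosinophil markers tested (7 listed), 4 were lower, with sums over the 7 of 226.4 to 337.3, 56.77 to 129.2 and 28.94 to 35.28 CPM. All 5 megakaryocyte markers were lower (811.3 to 1104, 320.5 to 489.3 and 109.6 to 152.4 CPM), as were 4 of 5 erythroid markers (143.7 to 204.9, 63.3 to 195.2 and 19.94 to 30.34 CPM). Of 8 stem and progenitor markers, 6 were higher and 1 lower, with sums of 366.5 to 529.8, 325.2 to 477.0 and 564.5 to 646.4 CPM. The lower one was Cd34 (log2 fold change -2.31), and Myb alone averaged 107.8, 185.9 and 331.1 CPM. Gata2 averaged 216, 142.5 and 169 CPM and was not called in CEBPA-first against CSF3R-only (-0.35, edgeR adjusted p = 0.053). Of 5 mast cell and basophil markers, 2 were lower in CEBPA-first against CSF3R-only (Cpa3 at -0.67 and Mcpt8 at -2.20), but against CSF3R-first 3 were higher and 1 lower, with sums of 1608 to 2677, 1069 to 1350 and 1218 to 1520 CPM. Of 4 dendritic cell markers tested (5 listed), Itgax (-2.63) and Zbtb46 (-2.35) were lower and Flt3 (1.495) higher than in CSF3R-only, with sums over the 5 of 13.78 to 16.63, 13.02 to 13.88 and 8.429 to 9.94 CPM. The part of these cell types in the levels of the oxidase genes was not tested. Of the markers of B cells, which express Hvcn1 strongly, 6 summed to 3.715 to 4.546, 3.401 to 4.361 and 5.899 to 6.984 CPM. Most of this was Cd79b, at 3.42, 3.40 and 6.06 CPM on average and higher in CEBPA-first against CSF3R-only (0.82, edgeR adjusted p = 0.0001). Cd79a was lower (0.615, 0.254 and 0.127 CPM, log2 fold change -2.21, adjusted p = 8.9e-05), and Pax5 and Ms4a1 were at or near 0. The part of B cells in the level of Hvcn1 was not tested. The sums over 6 T cell markers were 1.62 to 2.543, 1.969 to 2.718 and 3.68 to 5.133 CPM. Most of this was Lck, at 1.75, 2.23 and 4.32 CPM on average and higher in CEBPA-first against CSF3R-only (1.30, edgeR adjusted p = 3.3e-05), whereas Cd3d was lower (-2.25, adjusted p = 0.00063) and Cd4 averaged 0.191, 0.027 and 0.0043 CPM.

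Over the 11 samples, Cybb, Cyba, Ncf1, Ncf4 and Rac2 ran closely together in log2 CPM, with Pearson r between 0.968 (Ncf1 with Ncf4 or Rac2) and 0.998 (Ncf4 with Rac2). Rac1 correlated with them at 0.777 to 0.815 and Hvcn1 at -0.507 to -0.372. These values describe 3 groups that stand apart and libraries that share their scaling. Among 5918 genes with a mean log2 CPM of at least 5, those with the pattern most like Cybb were Il10rb (r = 0.9988), Tnfrsf1b (0.9982) and Tlr2 (0.9976). For Cyba they were Sri (0.9996), Zfand2b (0.9993) and Fcer1g (0.999), and for Ncf1 Ano10 (0.9967), Wsb2 (0.9965) and Plin2 (0.9961). For Ncf4 they were Prdx5 (0.9992), Shisa5 (0.999) and Pilra (0.9986), and for Rac2 Fth1 (0.9975), Anxa1 (0.9974) and Tyrobp (0.9973). Rac1 was most like Anxa7 (0.9869), Rab5a (0.9777) and Gdi2 (0.977), and Hvcn1 most like Ptgr1 (0.9141), Tinf2 (0.8965) and Slco4a1 (0.8952).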

How the data were processed

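Sequencing libraries came from total RNA (SMARTer universal low input kit after RNeasy micro columns). Per the study's methods and the submitters' processing notes, reads were trimmed with Trimmomatic and aligned with STAR to mm10 (the same assembly as GRCm38). The authors deposited raw counts per gene without normalization; the counting tool, annotation and strand setting are not given in the sources used here, so overlapping genes may share reads. Counts of 3 groups (n = 4, 3 and 4) were scaled with TMM, filtered with filterByExpr and tested in 1 fit with edgeR 4.0.16 (R 4.3.3) without covariates, with Benjamini-Hochberg adjustment over 15703 genes. SE was taken as the size of the log2 fold change over the square root of F. The study used DESeq2 and thresholds of 0.05 (adjusted p) and 1 (log2 fold change); DESeq2 1.42.0 was run as an alternative, beside other normalizations, filters and thresholds, the compared groups alone, a replicate block and each sample left out. Log2 CPM used a prior count of 2. Ratios were tested with two-sided exact permutation (scipy 1.17.1). Lengths and positions came from GENCODE M21, promoters from RefSeq for 3 of the 7 genes, and near-identical stretches (at least 100 bp at 97%) from BLAST 2.17.0. The 7 genes and all lists were chosen with earlier results of these data known. Named were the 7 genes, from each pathway list the 2 genes that fell and the 2 that rose most at adjusted p below 0.05, Cybc1, Mpo and the 3 genes most like each. Neighbouring genes, Sirt5, Noxo1, Nox4, Duox2 and cell type markers were named outside that rule, after their values were seen. The fit was tested on simulated data. One listed B cell marker is not reported here.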

Additional observations from a re-analysis of the deposited data

How the results depend on the processing

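The falls of Cybb, Ncf4 and Rac2 passed in all 3 comparisons, and those of Cyba and Ncf1 in both comparisons of CEBPA-first, under every alternative run, and all 9 ratios kept direction and threshold side with a prior count of 0.5. With samples left out the ratios kept their direction, and where too few samples remained for a p below 0.05 they moved by less than 1 SD. Over all fold changes and alternatives, 388 kept direction and side, 24 lost the call, 3 gained it and 5 changed sign. Past the fold threshold in CEBPA-first against CSF3R-only, 5 genes instead of 3 were lower with at least 10 counts in every sample, and 3 to 5 with a sample left out (5 without CSF3R-only replicate C or CEBPA-first replicate A), since Ncf1 and Rac2 lie at the threshold. In CSF3R-first against CSF3R-only that number was 0 to 1. Hvcn1, the 1 higher gene, was lost at an adjusted p of 0.01 in both comparisons with CSF3R-only, leaving 0, and leaving out a sample gave 0 to 1 in each. Changes of sign concerned values near 0 in CEBPA-first against CSF3R-first: Hvcn1 at 0.043 with library totals and 0.014 without a filter, and -0.11 to 0.11 with a sample left out, and Rac1 at -0.093 to 0.0225 with a sample left out. Their cause was not tested. Same-lettered replicates deviated together with correlations of -0.107 to 0.362, not all above 0.1, so the letters were not read as pairs; with a replicate block, Ncf1 in CSF3R-first against CSF3R-only passed (-0.26, adjusted p = 0.044), 5 genes there were lower instead of 4, and no other call changed. Library totals moved the median log2 fold change of all genes to 0.13 in CEBPA-first against CSF3R-only, and the calls over all genes in CSF3R-first against CSF3R-only from 3318 lower and 3385 higher to 2658 and 4324, so differences as small as that of Rac1 depend on the scaling.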
